A study of Mus musculus with 6 samples.

Results

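The semaphorins, plexins and neuropilins are 31 genes, chosen by family name from the 41388 gene identifiers of the files: 20 semaphorins, 9 plexins and 2 neuropilins. Semaphorins are guidance cues that tell growing axons, and cells that migrate, where not to go and sometimes where to go. Class 3 semaphorins are secreted, the semaphorins of classes 4, 5 and 6 span the membrane, and Sema7a is held on the membrane by a lipid anchor. Plexins are their receptors. Most secreted semaphorins need a neuropilin as well, because the neuropilin binds the ligand and the plexin carries the signal into the cell, where it acts on small GTPases and on the cytoskeleton. In the dorsal root ganglion (DRG), whose sensory neurons send axons to skin, viscera and spinal cord, Sema3a acting on Nrp1 is the textbook repellent pair.

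The cells were EGFP-positive cells of DRG from spinal levels T11 to S1 of mouse embryos, collected by flow cytometry at 18.5 dpc (days after coitum). The strain label is C57BL/6 and the genotype label Tg(Ret-EGFP)SJ, whereas the series text speaks of heterozygotes with EGFP in the Ret locus, so it is not settled here how many intact copies of Ret, a receptor tyrosine kinase for GDNF family ligands, the cells carried. All 6 libraries share this reporter, no EGFP-negative cells are analysed here, and none of the levels below can be called particular to Ret-positive cells. There were 3 male libraries (A, C and D) and 3 female libraries (A, B and C) of different embryos. Male A and female A were pools of 60 ganglia from 3 embryos, male C and male D of 40 ganglia from 2 embryos, and female B and female C of 20 ganglia from 1 embryo. Female A and male C drew on 2 mothers each. Female B and female C belong to a second set of GEO records written in another form, called record set 2 here, and the other 4 libraries to record set 1.

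Total counts ran from 17861500 to 29330101 per library, so the limit set by a count of 0, which is 3 counts, came to 0.102 to 0.168 CPM (counts scaled to a common library total); that limit covers counting error only. Ret stood at 181 ± 27.2 CPM (SD, n = 6). The sum of 10 sensory neuron markers was 13663 to 18925 CPM, and the motor neuron markers summed to at most 0.335 CPM with Mnx1 at 0 in every library. In male A the sensory neuron sum was 14452 CPM, with 5 of the 10 markers lowest there and 3 highest. Of all genes tested below, 28.4% were lowest and 31.1% highest in male A. Male A stood apart by its markers of other cells: 10 markers of satellite glia and Schwann cells summed to 2578 CPM there against 1191 to 1319 elsewhere (7 of 10 highest in male A), 7 of fibroblasts and meninges to 2873 against 574 to 675 (6 of 7), 8 of endothelium and pericytes to 78.1 against 27.2 to 41.0 (8 of 8), and 5 of macrophages and immune cells to 4.23 against 1.23 to 2.73 (3 of 5). Some markers went the other way: 2 of the 10 glial and 1 of the 5 immune markers were lowest in male A. No defining marker of these 4 lists was at 0 in male A. The 4 erythroid markers did not share the higher sums of male A. They summed to 11.1 CPM there, within the 8.67 to 45.2 of the other libraries, and 0 of 4 were highest there. The library labelled male C held 58.9 CPM of Xist, the RNA of the inactive X chromosome, against 0.418 and 0.575 in the other males and 111 to 197 in the females.

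Levels are given as RPKM, the count scaled to the library total and to the gene's summed exon length, with edgeR's TMM factors. This scale allows genes of different length to be compared. By the mean of the 6 libraries, 3 members reached 10 RPKM, 17 lay between 1 and 10, and 11 were under 1. A low-count filter kept 28 of the 31 for the tests below, leaving out Sema6b, Sema6c and Sema7a. The median level of the tested members was 2.71 RPKM, beside 4.07 for all 14958 tested genes. In such bulk samples, fewer cells of a type and less RNA per cell cannot be told apart.

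**Figure D1:**
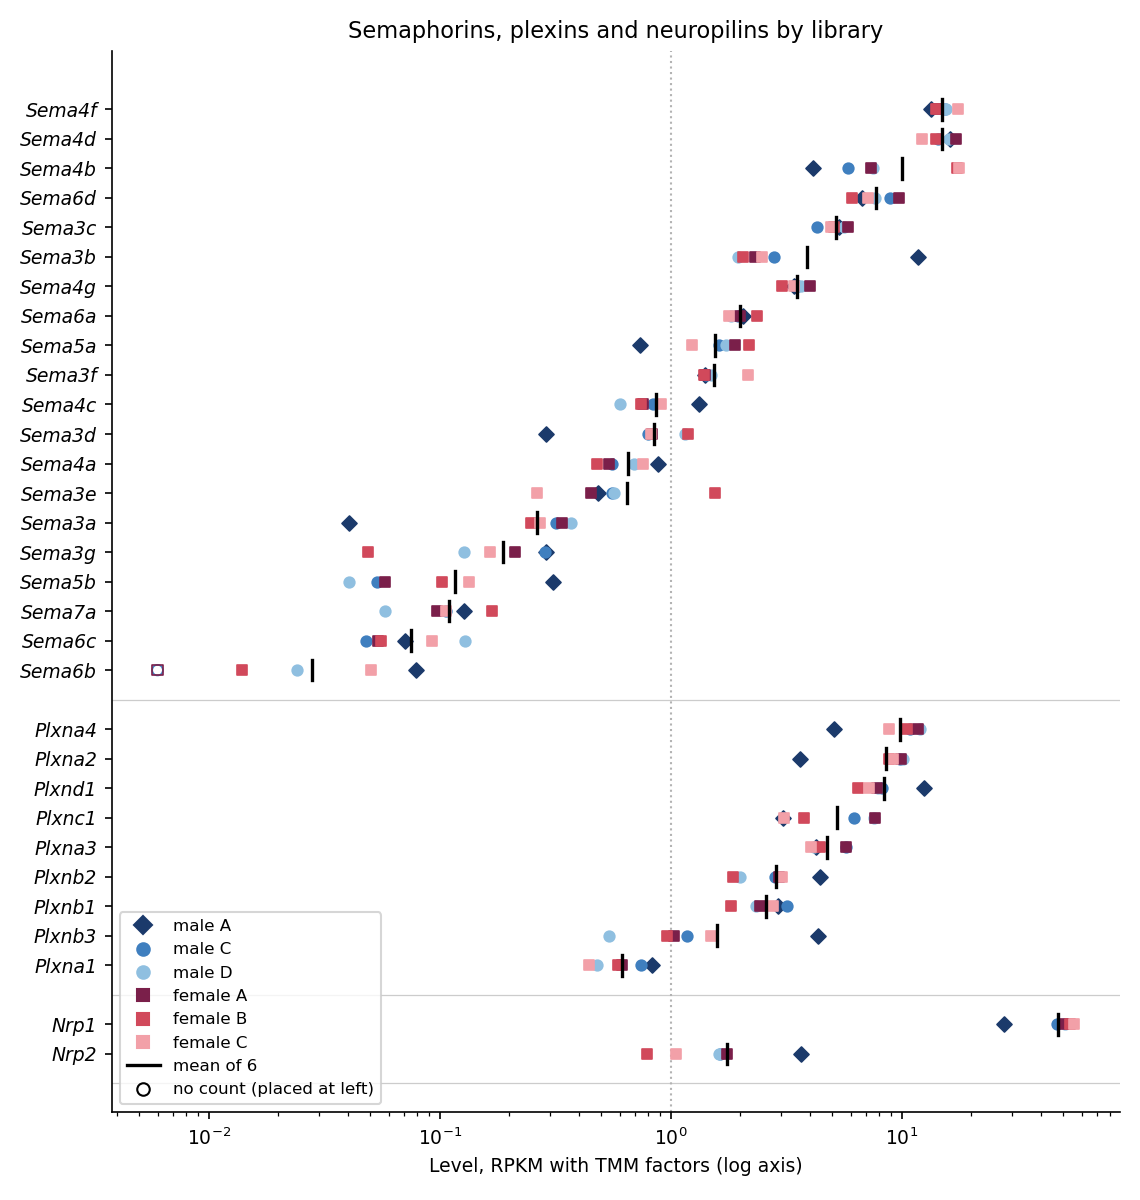
Level of each of the 31 genes in each of the 6 libraries, in RPKM on a log axis, with the mean of 6 as a black bar and 1 RPKM as a dotted line; open symbols at the left mark a count of 0. Nrp1 lies above every other gene in each library, and male A (diamond) lies away from the other libraries for Nrp1, Nrp2, Plxna2, Plxnb3, Plxnd1, Sema3a and Sema3b.

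Nrp1, the co-receptor for Sema3a and also a receptor for VEGF, was the most abundant gene of the family. Its level was 27.6, 47.0 and 50.8 RPKM in males A, C and D and 50.3, 53.7 and 55.6 in females A, B and C, a mean of 47.5 ± 10.2 (SD, n = 6) and the 91.0th percentile of the tested genes. Male A was the low library; the other 5 lay close together, at 51.5 ± 3.30 RPKM (SD, n = 5). Nrp1 alone made up 50.3% ± 7.13 (SD, n = 6) of the summed RPKM of the 11 receptor genes, from 38.1% to 57.5%.

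Nrp2, the neuropilin preferred by Sema3f, was low. It stood at 3.66, 1.63 and 1.62 RPKM in males A, C and D and 1.75, 0.789 and 1.05 in females A, B and C, a mean of 1.75 ± 1.01 (SD, n = 6) and 1.37 ± 0.420 (SD, n = 5) without male A. The order of the libraries was close to the reverse of that for Nrp1, with male A highest and female B and female C lowest. Within each library Nrp1 exceeded Nrp2, by 7.54-fold in male A and by 28.8-fold to 68.1-fold in the other 5. The mean log2 ratio of the RPKM values was 4.90 ± 1.10 (SD, n = 6), or 29.9-fold, and Nrp1 was higher in 6 of 6 libraries (two-sided exact sign-flip permutation test, p = 0.0312, adjusted p = 0.0312 over the 4 ratios tested; no smaller p is possible with 6 libraries). The size depends on the length used, since the files give Nrp2 11842 bp of exon and Nrp1 5907: the mean log2 ratio was 3.90 with no length and 3.91 with the longest coding sequence of each gene.

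The neuropilin pair differed widely in level, and Sema4f shared the highest mean of the semaphorins with Sema4d. The bases just before the start of 4 genes are shown: Nrp1, Nrp2, Sema4f and Sema3a, the ligand of the textbook pair. They are RefSeq promoter windows of GRCm38.p6, 250 bases before the start or, for Nrp2, the 218 that precede the gene's 5′ end in the files; all are written 5′ to 3′ on the gene's own strand, and capitals mark CG pairs. The positions are chr8:128358823-128359072 (plus strand) for Nrp1, chr1:62703067-62703284 (plus) for Nrp2, chr6:82939770-82940019 (minus) for Sema4f and chr5:13396534-13396783 (plus) for Sema3a.
Nrp1: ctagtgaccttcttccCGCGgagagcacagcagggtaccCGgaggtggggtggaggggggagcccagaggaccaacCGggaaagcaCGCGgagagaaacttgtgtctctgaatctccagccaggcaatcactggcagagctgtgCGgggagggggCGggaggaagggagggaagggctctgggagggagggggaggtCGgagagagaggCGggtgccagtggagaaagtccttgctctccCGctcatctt
Nrp2: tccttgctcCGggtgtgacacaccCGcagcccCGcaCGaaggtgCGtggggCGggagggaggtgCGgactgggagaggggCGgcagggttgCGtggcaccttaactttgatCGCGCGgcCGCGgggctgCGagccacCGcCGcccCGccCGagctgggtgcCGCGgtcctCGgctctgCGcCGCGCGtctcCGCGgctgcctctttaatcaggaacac
Sema4f: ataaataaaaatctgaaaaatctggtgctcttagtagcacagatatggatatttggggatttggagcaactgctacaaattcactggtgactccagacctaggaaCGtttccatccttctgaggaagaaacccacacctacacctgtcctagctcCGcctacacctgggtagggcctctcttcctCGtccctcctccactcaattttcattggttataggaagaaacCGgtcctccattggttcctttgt
Sema3a: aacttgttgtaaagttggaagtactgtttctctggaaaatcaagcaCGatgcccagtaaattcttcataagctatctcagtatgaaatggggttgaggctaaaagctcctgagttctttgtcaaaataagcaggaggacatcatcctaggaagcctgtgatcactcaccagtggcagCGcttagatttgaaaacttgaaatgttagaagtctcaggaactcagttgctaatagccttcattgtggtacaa
The Nrp2 stretch holds 28 CG pairs in 218 bases, that of Nrp1 11 in 250, that of Sema4f 4 and that of Sema3a 2. The mean levels of these genes, which were picked with their levels known, were 1.75 RPKM for Nrp2, 47.5 for Nrp1, 15 for Sema4f and 0.264 for Sema3a.

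The table of windows, each 250 bases before to 50 after a start, held 37 windows for 26 of the 31 members; Plxna1, Plxna4, Sema3b, Sema3f and Sema6a had no entry. A window of the family held a median of 15 CG pairs, beside 7 over all 32851 windows. At least 15 CG pairs were found in 19 of the 37, or 51.4%, and in 34.6% of all windows. As 15 is the family's own median, its share follows from that median and is no second observation. All windows cover 27025 genes, whether tested here or not. The letters TATAAA, the core of a TATA box, were searched on both strands and occurred in 0 of 37 windows and in 13.6% of all. TAATTA, a core read by many homeodomain factors, occurred in 0 of 37 and in 5.29% of all, and AACAAT, a core read by SOX factors, in 2 of 37 (5.41%; Plxnb3 and Sema4d) and in 10.7% of all. Several members have more than 1 window, so windows are not independent, and a match is a description of these letters only. Some windows also lie far from the 5′ end of the gene as counted. Those of Sema4d start 37064 to 54301 bp downstream of it and a Sema6d window 563612 bp downstream. Those of Plxnb2 start at -2831 and -9668 bp, outside the gene as counted.

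Among the plexins, Plxna4, Plxna2 and Plxnd1 were the most abundant, and together they made up 60.4% ± 4.97 (SD, n = 6) of summed plexin RPKM. Plxna4, a receptor that with Nrp1 responds to Sema3a, stood at 5.09, 10.9 and 12.0 RPKM in males A, C and D and 11.7, 10.5 and 8.76 in females A, B and C (9.83 ± 2.58, SD, n = 6). Male A was the lowest and the other 5 did not reach down to it. Plxna2, known as a receptor for the membrane-bound Sema6 ligands, stood at 3.61, 9.81 and 10.1 RPKM in males A, C and D and 9.93, 8.79 and 9.19 in females A, B and C (8.57 ± 2.48, SD, n = 6). Without male A its mean was 9.56 ± 0.544 (SD, n = 5), a coefficient of variation of 5.69%.

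Plxnd1, the receptor of Sema3e and prominent in blood vessels, went the other way. Its level was 12.5, 8.19 and 7.85 RPKM in males A, C and D and 7.78, 6.46 and 7.19 in females A, B and C, a mean of 8.34 ± 2.15 (SD, n = 6) and 7.5 ± 0.682 (SD, n = 5) without male A. Male A was thus highest, and the endothelial marker sum was also highest there (78.1 CPM against at most 41.0); its part in the Plxnd1 level was not tested. The means of Plxna4, Plxna2 and Plxnd1 differed by less than their SD, and in male A Plxnd1 was the first of the 3.

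Plxnc1, the receptor of Sema7a, followed at 5.24 ± 2.18 RPKM and Plxna3, a receptor for class 3 semaphorins encoded on the X chromosome, at 4.73 ± 0.795 (SD, n = 6). Plxnd1 exceeded Plxnc1 in 6 of 6 libraries, and their means differed by more than the SD of either. Plxnc1 lay at separate levels: 6.19, 7.59 and 7.68 RPKM in male C, male D and female A, against 3.06, 3.79 and 3.10 in male A, female B and female C. Plxna3 was more even, from 4.03 to 5.74 RPKM. Plxna1 was the lowest plexin, at 0.616 ± 0.148 RPKM (SD, n = 6). In GENCODE M21, 970 bp of its exons, 10.7% of their length, overlap Gm26811 on the opposite strand, and the strand setting of the counting is not known here.

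The B plexins, known mainly as receptors of class 4 semaphorins, were lower. Plxnb2 stood at 2.85 ± 0.923 RPKM (1.85 to 4.42, highest in male A), Plxnb1 at 2.58 ± 0.483 (1.82 to 3.18) and Plxnb3 at 1.59 ± 1.39 (SD, n = 6). Plxnb3 was 4.35, 1.17 and 0.539 RPKM in males A, C and D and 1.03, 0.963 and 1.5 in females A, B and C, so its large SD came from male A, without which it was 1.04 ± 0.350 (SD, n = 5). Summed A plexins reached 23.7 ± 5.28 RPKM and summed B plexins 7.02 ± 2.56 (SD, n = 6).

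The A plexins exceeded the B plexins by 3.46-fold, a mean log2 ratio of 1.79 ± 0.82 (SD, n = 6), in 6 of 6 libraries (two-sided exact sign-flip permutation test, adjusted p = 0.0312). The ratio was 1.18-fold, 3.78-fold and 5.50-fold in males A, C and D and 4.36, 5.26 and 3.07 in females A, B and C. In male A the sums were 13.8 and 11.7 RPKM, nearly level, while in the other 5 libraries A plexins were at least 3.07-fold higher. With the median member in place of the sum, the mean log2 ratio was 1.32 and the exact permutation test gave an adjusted p of 0.0625. The mean log2 ratio was 2.49 with no length and 2.55 with the longest coding sequence.

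**Figure D2:**
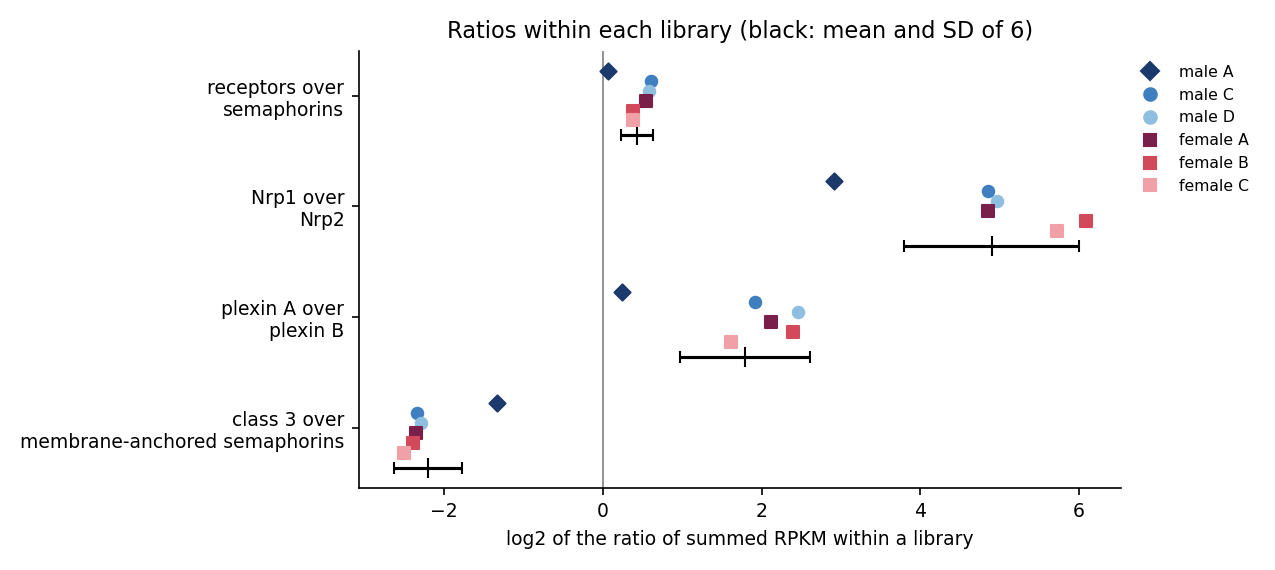
Ratios of summed RPKM within each library on a log2 axis, 1 symbol per library, with the mean and SD of 6 in black and the line of equal sums at 0. All 6 libraries lie on the same side of 0 for each of the 4 ratios, and male A (diamond) lies nearest to 0 in each.

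Of the semaphorins, Sema4f, Sema4d and Sema4b, all of class 4, had the highest means. Together they made up 57.7% ± 5.51 (SD, n = 6) of the summed semaphorin RPKM. Sema4f, a transmembrane semaphorin of neurons, stood at 13.4, 15.4 and 15.5 RPKM in males A, C and D and 14.4, 14.0 and 17.5 in females A, B and C (15 ± 1.45, SD, n = 6). Sema4d, a ligand of Plxnb1, stood at 16.1, 14.3 and 16.0 RPKM in males A, C and D and 17.2, 14.1 and 12.2 in females A, B and C (15 ± 1.81, SD, n = 6). Both genes varied little, with coefficients of variation of 9.64% and 12.1%, and their means differed by less than their SD.

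Sema4b, a transmembrane class 4 semaphorin, split by record set. It was 4.14, 5.87 and 7.51 RPKM in males A, C and D and 7.39 in female A, against 17.4 and 17.6 in females B and C. In female B and female C it was thus the highest semaphorin or level with the highest. In the other 4 libraries Sema4f, Sema4d and Sema6d were above it. Sema6d, a transmembrane ligand of plexin A receptors, came next by mean at 7.71 ± 1.38 RPKM (SD, n = 6), from 6.11 to 9.76. Sema6d was below Sema4b in only 2 of 6 libraries and exceeded Sema3c in 6 of 6. Sema4g was 3.52 ± 0.323, Sema6a, which is a ligand of Plxna2 and Plxna4, 1.99 ± 0.201, and Sema5a, a semaphorin with thrombospondin repeats, 1.56 ± 0.510 RPKM (SD, n = 6). Sema4g (3.04 to 4.02) and Sema6a (1.79 to 2.35) were even across libraries, while Sema5a was 0.735 RPKM in male A and 1.23 to 2.17 in the other 5.

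The secreted class 3 semaphorins were the smaller group. Sema3c was the highest of them, at 5.37, 4.29 and 5.62 RPKM in males A, C and D and 5.85, 5.08 and 4.96 in females A, B and C (5.20 ± 0.553, SD, n = 6). It was one of the most even members and made up 43.0% ± 8.52 (SD, n = 6) of the summed RPKM of the class. Sema3f, the Nrp2 ligand, was 1.54 ± 0.302 RPKM (SD, n = 6), lying between 1.39 and 1.5 in 5 libraries and at 2.15 in female C.

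Sema3b, a secreted semaphorin, had the largest excess in male A in RPKM. It stood at 11.7, 2.80 and 1.95 RPKM in males A, C and D and 2.32, 2.06 and 2.48 in females A, B and C, a mean of 3.88 ± 3.82 (SD, n = 6) and 2.32 ± 0.340 (SD, n = 5) without male A. In male A it was 59.7% of the class 3 sum and the first of the class, whereas in the other 5 libraries Sema3c was. The fibroblast and meninges marker sum was likewise far higher in male A (2873 CPM against at most 675) and the glial sum 2578 against at most 1319; their part in the Sema3b level was not tested.

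Sema3a itself was low, at most 0.370 RPKM in any library. Its level was 0.0404, 0.318 and 0.370 RPKM in males A, C and D and 0.339, 0.248 and 0.271 in females A, B and C, from 5, 65, 50, 48, 29 and 35 counts. Male A was the low library by far, while the other 5 were alike (0.309 ± 0.0497, SD, n = 5). The neuropilin that binds it, Nrp1, was the most abundant gene of the family in the same libraries. Sema3e, the Plxnd1 ligand, was 0.647 ± 0.458 RPKM (SD, n = 6), with 1.55 in female B from 213 counts and 0.264 to 0.569 in the other 5.

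The remaining low members lay under 1 RPKM in mean. Sema4c (0.863), Sema3d (0.845) and Sema4a (0.651) were the upper ones, with Sema3d at 0.288 in male A and 0.796 to 1.19 elsewhere, and Sema3g (0.188), Sema5b (0.116), Sema7a (0.110), Sema6c (0.0750) and Sema6b (0.0279) the lower ones. Sema6b had 13 counts over all 6 libraries, with 0 in male C and female A, which allows up to 0.102 and 0.138 CPM. Sema7a, the ligand of Plxnc1, had 47 counts in all, so ligand and receptor of that pair stood at 0.110 and 5.24 RPKM.

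The class 3 semaphorins summed to 12.6 ± 3.43 RPKM and the membrane-anchored ones to 56.6 ± 5.01 (SD, n = 6). The class 3 sum was 0.217 times that of the membrane-anchored group, a mean log2 ratio of -2.20 ± 0.43 (SD, n = 6), and lower in 6 of 6 libraries (two-sided exact sign-flip permutation test, adjusted p = 0.0312). It was 0.396 times in male A and 0.177 to 0.204 times in the other 5. The groups differ in size: 7 class 3 genes stand against 12 transmembrane ones and 1 with a lipid anchor. With the median member in place of the sum, the mean log2 ratio was -0.91 (adjusted p = 0.0469, exact permutation).

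The 11 receptor genes summed to 72.3, 97.4 and 99.5 RPKM in males A, C and D and 101.8, 93.8 and 96.6 in females A, B and C. The 20 semaphorins summed to 68.9, 63.7, 66.7, 69.6, 72.3 and 74.1 RPKM in the same order of libraries. The receptor sum was 1.35-fold that of the ligands, a mean log2 ratio of 0.43 ± 0.20 (SD, n = 6), and higher in 6 of 6 libraries (two-sided exact sign-flip permutation test, adjusted p = 0.0312), by 1.05-fold in male A and up to 1.53-fold in male C. The direction depended on the top members: without Nrp1 and Sema4f, the highest on each side, the mean log2 ratio turned to -0.24 (adjusted p = 0.0625, exact permutation), and with the longest coding sequence in place of the exon length it was 0.14 (adjusted p = 0.156, exact permutation). With the median member in place of the sum, the log2 ratio was 1.87 (adjusted p = 0.0469, exact permutation): a typical receptor was well above a typical semaphorin, of which 10 of 20 were under 1 RPKM.

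By the median coefficient of variation, the spread between libraries was much that of other genes. A single library stood apart more often, by the rule given below for flagged results. This held for 35.7% of the tested members and 12.4% of all tested genes, and in male A for 28.6% and 9.73%. The median coefficient of variation of the 28 tested members was 27.6%, and 18.7% without male A, beside 25.3% and 20.2% for all tested genes. Male A was the highest library for 10 of the 28 and the lowest for 9, while over all tested genes it was highest for 31.1% and lowest for 28.4%. Among the 28 tested members, those with the largest excess in male A over the median of the other 5 were Sema5b (5.34 times, from 42 counts), Sema3b (5.02 times) and Plxnb3 (4.24 times), followed by Nrp2 (2.26 times). Those furthest below were Sema3a (0.127 times), Sema3d (0.349), Plxna2 (0.368), Sema5a (0.425), Plxna4 (0.468), Plxnc1 (0.495) and Nrp1 (0.543). Plxna2, Plxna4 and Nrp1 were thus low in male A and Nrp2 high. Of the other A plexins, Plxna1 was 1.41 times and Plxna3 0.958 times the median of the other libraries. Plxnd1, the receptor of Sema3e, was 1.61 times. The 3 B plexins were all above the median of the other libraries there.

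**Figure D3:**
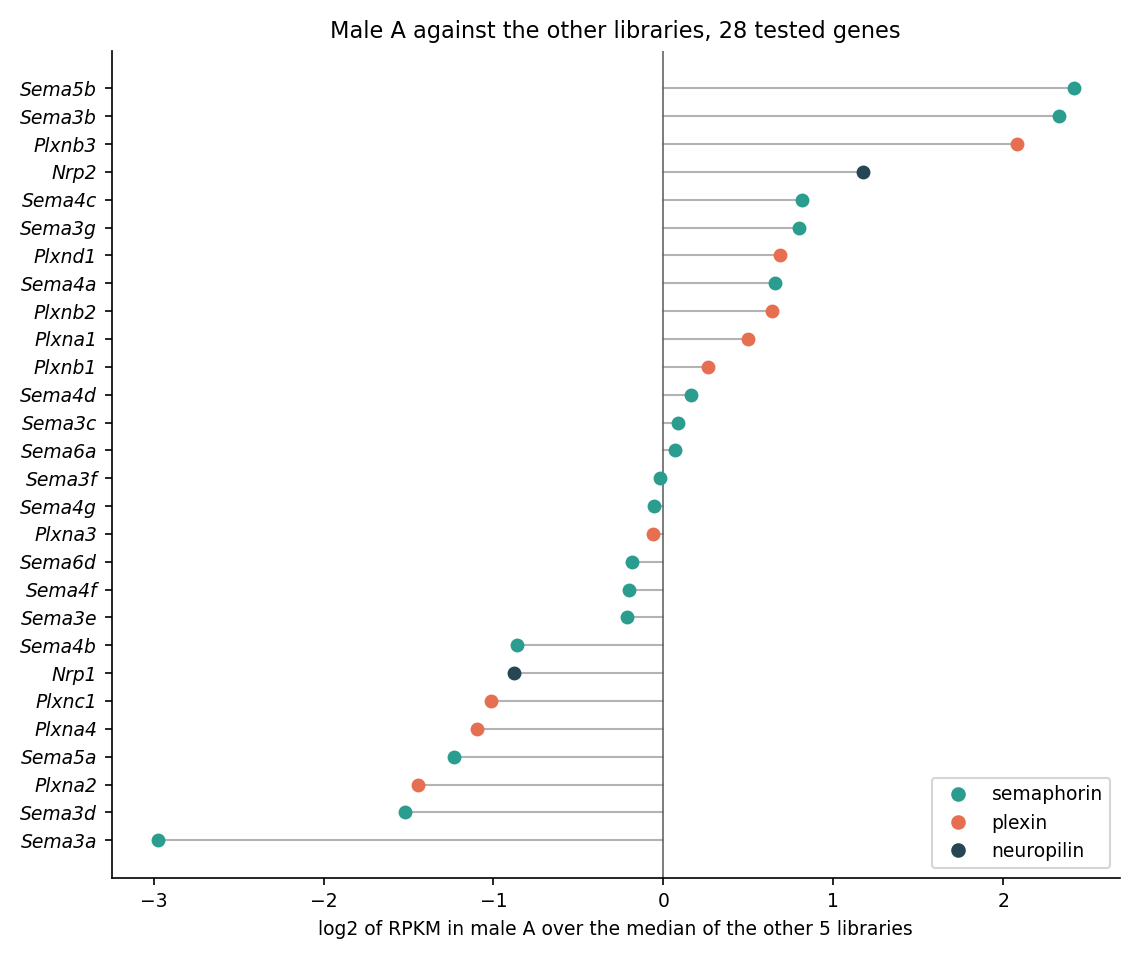
RPKM in male A over the median of the other 5 libraries, as log2, for the 28 tested genes, coloured by family. Sema5b, Sema3b and Plxnb3 lie furthest above 0 and Sema3a furthest below.

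The sexes were set against each other in an edgeR quasi-likelihood test on the counts of all genes. Of the 28 tested members 0 were called at an adjusted p under 0.05, where 0.0267% of all tested genes (4 of 14958) were; DESeq2 and limma voom also called 0. At an unadjusted p under 0.05 there were 2 members, Sema4b and Nrp2, with 4.42% of all genes at that level. The log2 change was above 0 for 13 members and below 0 for 15, with a median of -0.02, beside -0.00359 over all tested genes. The library labelled male C, with its Xist, counts as male here; leaving out male A and male C called no member either, in a fit with 1 male library left.

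All 3 females lay below all 3 males, or all above, for 1 of the 28 members, where 8.06% of all tested genes showed no overlap. This was Plxnd1: its 3 male values of 7.85 to 12.5 RPKM stood just above the 3 female values of 6.46 to 7.78. Its log2 change, female minus male, was -0.42 (SE 0.24, edgeR adjusted p = 0.961), and -0.17 without male A, with adjusted p from 0.438 to 1 over 15 other settings. The pair with an unadjusted p under 0.05 was picked after its values were seen. Sema4b was 14.1 RPKM in mean in females and 5.84 in males, a log2 change of 1.27 (SE 0.36, edgeR adjusted p = 0.961). Within record set 1 (3 males against female A) the log2 change was 0.34. With the record set as a term it was also 0.34, because that fit compares the sexes in the same libraries. Nrp2 was 1.20 RPKM in females and 2.30 in males, a log2 change of -0.94 (SE 0.40, edgeR adjusted p = 0.961), -0.44 without male A and -0.40 within record set 1.

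**Figure D4:**
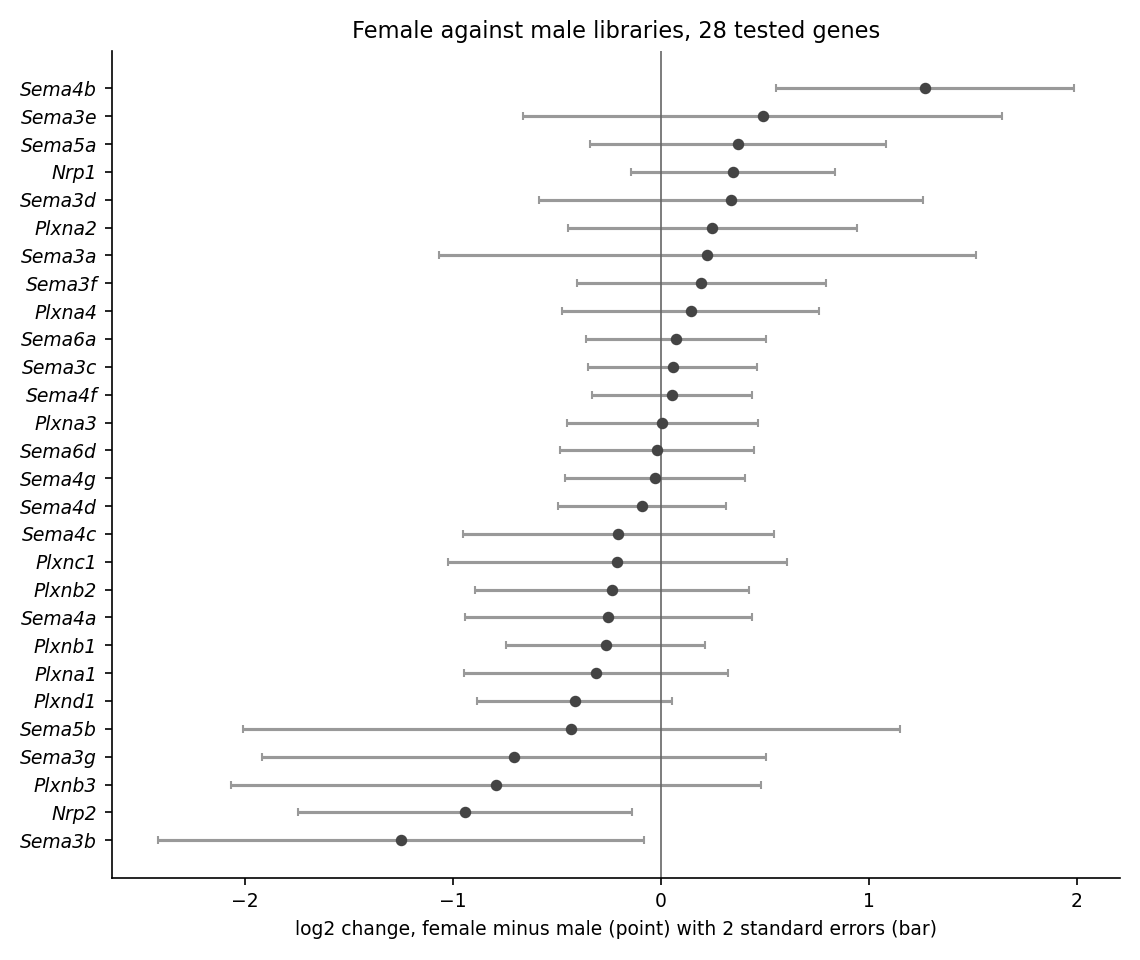
Log2 change, female minus male, of the 28 tested genes with bars of 2 standard errors from the edgeR fit of 3 against 3 libraries. Most bars span 0; the bars of Sema4b, Nrp2 and Sema3b do not, and the smallest adjusted p was 0.961.

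The 2 libraries of the second record set were then set against the other 4 beside a term for sex. Leaving out a male can hardly move the estimate, because it rests on female A against female B and female C. These 2 libraries also come from single embryos with 20 ganglia each, so record set and pool size cannot be told apart. Of the 28 members 0 were called by edgeR, where 0% of all tested genes were, and DESeq2 called 0 members as well. At an unadjusted p under 0.05 there were 2, Sema4b and Plxnc1, with 3.23% of all genes at that level. Both libraries lay above all others for 2 members (Sema4b and Nrp1) and below all others for 4 (Nrp2, Sema4d, Sema4g and Plxnd1), while 21.6% of all tested genes did not overlap.

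Sema4b, with the values given above, was 17.5 RPKM in mean in record set 2 and 6.23 in record set 1, a log2 change of 1.24 (SE 0.40, edgeR adjusted p = 1), and from 1.23 to 1.49 over 8 other settings with adjusted p from 0.109 to 1. Plxnc1 was 3.45 against 6.13 RPKM, a log2 change of -1.15 (SE 0.49, edgeR adjusted p = 1), although male A of record set 1 was as low as female C. Sema6d was 6.62 against 8.26 RPKM, a log2 change of -0.56 (SE 0.29, edgeR adjusted p = 1). The sensory neuron marker sum was also highest in female C and female B, at 18133 and 18925 CPM against 13663 to 14962 in record set 1; its part in the Sema4b level was not tested.

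**Figure D5:**
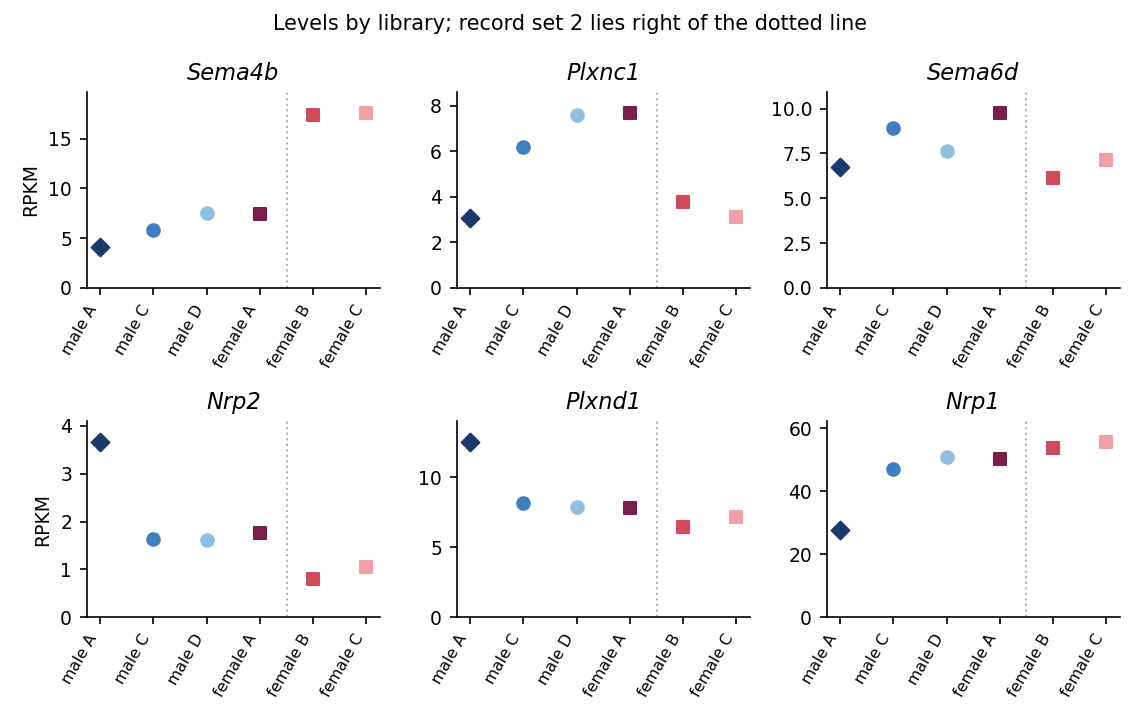
RPKM of 6 genes in each library, with female B and female C (record set 2) right of the dotted line and each axis starting at 0. Sema4b lies at 17.4 and 17.6 RPKM in these against at most 7.51 elsewhere, while for Plxnc1 male A lies with record set 2.

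Other genes of the pathway were taken from a list of partners and downstream proteins. Of its 47 tested members 0 were called between the sexes or the record sets by edgeR, beside 0.0267% and 0% of all tested genes. At an unadjusted p under 0.05 there were 2 (Dpysl2 and Gsk3b) for sex and 1 (Farp2) for the record sets, beside 4.42% and 3.23% of all tested genes. Dpysl2 was highest in female B and female C, at 4670 and 4100 RPKM against 1810 to 2890 in record set 1. Gsk3b was so too, at 284 and 251 against 89.4 to 171. For both genes female A lay below male D. Cd72, Timd2, Fes and Rnd1 did not pass the filter. The collapsin response mediators, which carry the Sema3a signal to microtubules, include the most abundant gene of the list: Dpysl2 (CRMP2) stood at 3020 ± 1160 RPKM and Dpysl3 at 458 ± 38.9 (SD, n = 6). Of the kinases that act on them, Gsk3b was 174 ± 80.2 RPKM and Cdk5 90.7 ± 10.5. Of the adaptors and cytoskeletal proteins, the actin-severing Cfl1 was 646 ± 167 RPKM and Gipc1, which binds the tail of Nrp1, 17.8 ± 6.26, with 30.5 in male A against 14.6 to 16.2 elsewhere.

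Among other surface partners, Itgb1, the integrin chain used by Sema7a, was 83.4 ± 15.1 RPKM and L1cam, a cell adhesion molecule that associates with Nrp1, 55.5 ± 6.54 (SD, n = 6). The small GTPases Rhoa and Rap1b stood at 89.5 ± 22.6 and 40.4 ± 12.9 RPKM. The flavoprotein oxidases Mical1 and Mical3, which disassemble actin downstream of plexins, were 8.18 ± 1.62 and 4.99 ± 0.865 RPKM. Of the VEGF ligands of the neuropilins, Vegfb was 6.87 ± 1.57 and Vegfa 1.38 ± 0.569 RPKM, and Furin, a convertase that cleaves class 3 semaphorins, was 0.593 ± 0.286 RPKM.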

How the data were processed

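RNA of 6 libraries was measured by amplified full-length cDNA sequencing without molecular identifiers. The submitters' processing notes name Subread, with no version, featureCounts 1.4.5 and GRCm38.p2; how strand and multi-mapping reads were treated is not given in the sources used. The authors deposited raw counts per Ensembl gene; per the file headers, CPM and RPKM columns and the exon length stand beside them. The deposited CPM is the count scaled to the library total, and the deposited RPKM is that per kilobase of exon; both were recomputed from the counts and only counts and lengths were used.

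TMM factors, RPKM and the quasi-likelihood test came from edgeR 4.0.16 (R 4.3.3; filterByExpr on sex, 14958 genes, Benjamini-Hochberg over all of them, threshold 0.05; biological coefficient of variation 31.1%). DESeq2 1.42.0, limma voom (limma 3.58.1), other filters and normalization, omitted libraries and other terms were alternatives. Ratios of summed RPKM were tested with a two-sided exact sign-flip permutation test over libraries. The edgeR script was checked on simulated data. Libraries are different embryos or pools, and no pair agreed within sampling noise.

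Every member is given by level, those under 1 RPKM more briefly. Changes were to be named for members called or with no overlap between the sexes, for the 3 with the smallest p between record sets, and levels for the 2 highest of each pathway role. Members and lists were chosen with earlier results of these data known. Gene models were compared with GENCODE M21: exon stretches of at least 100 bp are shared with another gene by 5 members (Sema4c, Plxna1, Plxna4, Plxnb1, Plxnc1), and a near-identical copy (95% identity over 150 bp, blastn 2.17.0) was found for Sema3a alone, over 5.7% of its transcript.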

Additional observations from a re-analysis of the deposited data

Results flagged for a closer look

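A level was singled out where, among the 6 libraries, the highest or lowest stood off from its nearest neighbour by more than Dixon's 95% limit. Chance flags about 1 in 20 such groups; 32 were looked at and 11 stood out, 9 of them in male A, so they are not separate observations. By the same rule 35.7% of the 28 tested members (10) and 12.4% of all tested genes stood out in some library, and 28.6% and 9.73% in male A.

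In male A, 5 genes were high: Sema3b at 11.7 RPKM (1.95 to 2.80 in the others), Plxnd1 at 12.5 (6.46 to 8.19), Plxnb3 at 4.35 (0.539 to 1.5), Nrp2 at 3.66 (0.789 to 1.75) and Sema5b at 0.310 (0.0406 to 0.134). In the same library 3 genes were low: Nrp1 at 27.6 RPKM (47.0 to 55.6), Plxna2 at 3.61 (8.79 to 10.1) and Sema3a at 0.0404 (0.248 to 0.370). The log2 ratio of class 3 to membrane-anchored semaphorins was -1.34 in male A and -2.50 to -2.29 in the others. The glial, fibroblast and endothelial marker sums were also highest in male A (2578, 2873 and 78.1 CPM); their part in these levels was not tested.

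Outside male A, Sema3e was 1.55 RPKM in female B against 0.264 to 0.569 in the others, and Sema3f was 2.15 RPKM in female C against 1.39 to 1.5.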

How the results depend on the processing

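No member was called between sexes or record sets under any alternative run. Record set 1 only and the fit without male A and male C leave 1 library on one side. With the record set as a term, the sex change likewise rests on female A alone among the females. That library is assumed to vary like the others, so the lack of calls in these fits says nothing about stability. Over all genes, 4 were called for sex in the main fit, 14 with no low-count filter, 13 by DESeq2, 1 by limma voom, 0 in record set 1 only, 0 with the record set as a term and 0 to 5 with 1 library left out (0 without female A). Replicate letters A and C occur in both sexes and no label says that they pair libraries; the replicate block called 77 genes, none of them a member. Between record sets, 0 genes were called in the main fit, 3 with no sex term and 13 by DESeq2; the fit without female A could not be made. The sex log2 change of Sema3b was -1.25 and turned to 0.22 without male A and male C, and -0.06 without male A.

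Of the ratios (mean log2), receptors over semaphorins turned to -0.24 without the highest member on each side and lost the call at 0.14 with the longest coding sequence in GENCODE M21, an alternative chosen after seeing the data. Nrp1 over Nrp2 kept its call at 3.90 with no length and 3.91 with coding length, and plexin A over plexin B at 2.49 and 2.55. Plexin A over plexin B lost it at 1.32 with the median member. Class 3 over membrane-anchored semaphorins kept its call at -0.91 with the median member. With 1 library left out, receptors over semaphorins ran from 0.39 to 0.50, Nrp1 over Nrp2 from 4.66 to 5.30, plexin A over B from 1.66 to 2.10 and class 3 over membrane-anchored from -2.38 to -2.15; 5 libraries cannot give an exact p under 0.0625. Leaving out 1 of 6 libraries can never move a mean by as much as 1 SD, so that limit says nothing about stability. Sema3b, for one, went from 3.88 RPKM to 2.32 without male A. With the RPKM as deposited, levels moved by less than 1 SD. TPM, another unit, is higher for all 31. Coding length from a RefSeq protein table was not run. Depth limits Sema6b, Sema6c and Sema7a, with 13, 57 and 47 counts in all.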

Other observations

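Some members lie near each other in the genome, and 3 such pairs are given, with a further neighbour of Sema3a. Sema3b (chromosome 9, 107597674 to 107609229, minus strand, coordinates of the files on GRCm38.p2) and Sema3f (chromosome 9, 107681502 to 107710475, minus strand) are neighbours within the family. Sema3b was 11.7 RPKM in male A against at most 2.80 elsewhere, while Sema3f was between 1.39 and 2.15 in every library. Plxnb3 (chromosome X, 73757090 to 73772514) and Plxna3 (chromosome X, 74329066 to 74344689) are both X-linked and on the plus strand; Plxnb3 was 4.35 RPKM in male A against at most 1.5 elsewhere, and Plxna3 4.25 there within a range of 4.03 to 5.74. Sema3d (chromosome 5, 12383166 to 12588943) and Sema3a (chromosome 5, 13396784 to 13602565), both on the plus strand, were both lowest in male A, at 0.288 RPKM against 0.796 to 1.19 and at 0.0404 against 0.248 to 0.370. Sema3e (chromosome 5, 14025276 to 14256689, plus strand) lies nearer to Sema3a than Sema3d does. Sema3e was not lowest in male A, at 0.482 RPKM there and 0.264 to 1.55 in the others. The 3 pairs were picked after their values were seen.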
